A study of Bos taurus with 9 samples.

Results

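The genes described here are 10 transcripts of the oocyte and of maternal effect genes: *GDF9*, *BMP15*, *ZAR1*, *NLRP5*, *OOEP*, *TLE6*, *PADI6*, *ZP2*, *ZP3* and *ZP4*. They were chosen by name, and all 10 were found among the 21512 genes of the deposited table. Expression was measured in individual bovine blastocysts 8 days after *in vitro* fertilization (D8), 5 WT and 4 *TEAD4* KO, with 1 library per embryo. WT embryos carried no mutated *TEAD4* allele. KO embryos carried only frame-disrupting indels made with *Cas9* mRNA and a guide RNA injected into the matured oocyte. Such indels arise at random, and those of each sequenced KO embryo are not given in the sources used here. The study's control embryos were injected with *Cas9* mRNA alone. All oocytes came from slaughterhouse ovaries and were fertilized with semen of 1 bull, and the embryos were cultured in synthetic oviduct fluid. Each library holds a whole blastocyst, TE and ICM together. Whether the zona pellucida was still present at freezing is not given in the sources used here. Values are TPM, each gene's share of all transcripts, corrected for transcript length and scaled to a total of 1000000 in each library. They do not keep the number of reads, and the study gives its read totals only as a range over all samples, so the counts behind a low value in a given library are not known here. Libraries are named WT_1 to WT_5 and TE_1 to TE_4, where TE is the label of the *TEAD4* KO embryos.

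A growing oocyte stores messenger RNA and protein for the first divisions of the embryo, before the embryonic genome is transcribed. Stored transcripts are then removed, by shortening of their poly(A) tails and decay, while the embryo takes over. Genes whose stored product the embryo needs are called maternal effect genes. Several of them encode the subcortical maternal complex, a protein assembly under the membrane of the oocyte and the cleavage-stage embryo. No oocyte or earlier embryo is part of the series, so the values give what was left at D8 and not the amount lost. A transcript left by the oocyte and one newly made by the embryo cannot be told apart in TPM. The RNA was captured by its poly(A) tail, so a stored transcript without a tail would be poorly seen. In whole embryos, fewer cells of a type and less RNA per cell cannot be told apart either.

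The 9 libraries carried the markers of a blastocyst. All 14 TE, ICM and hypoblast markers looked up, among them *CDX2*, *GATA3*, *SOX2*, *POU5F1* and *SOX17*, were above 0 TPM in every library. The highest were *KRT8* and *KRT18*, keratins of the TE, and *POU5F1*, with medians of 5101, 3372 and 1407 TPM. *TEAD4* transcripts ranged from 18.0 to 54.3 TPM in WT and from 12.5 to 42.8 TPM in KO embryos (two-sided exact permutation test, p = 0.270). TPM do not show whether a transcript carries an indel. Between 14776 and 16678 genes were above 0 TPM in a library. The mean was 16010.6 ± 740.9 genes in WT (SD, n = 5) and 15118.5 ± 249.6 in KO libraries (SD, n = 4). One library, WT_1, held several oocyte transcripts that were at or near 0 in the other 8, among them *BMP15*, and the log2 fold changes between genotypes below are given with and without it.

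The 10 transcripts fell into 2 levels. *OOEP*, *ZP3* and *TLE6* were above 1 TPM in each of the 9 libraries. The other 7 were at or under 1.42 TPM in every library, and each of these was listed at 0 in at least 1 library. *OOEP*, *ZP3* and *TLE6* together made up between 91.1% (WT_1) and 99.5% (TE_3) of the summed TPM of all 10. A median above 1 TPM was reached by 3 of the 10, and by 52.2% of all genes in the table. A median above 0.1 TPM, the study's threshold of detection, was reached by 6 of the 10 and by 67.9% of all genes.

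**Figure D1:**
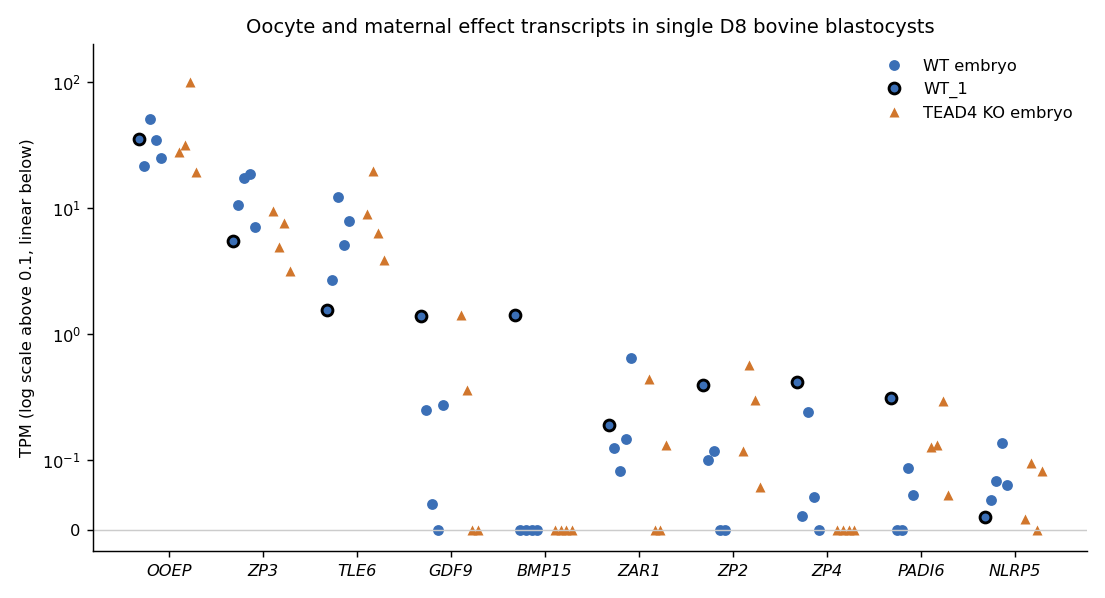
TPM of the 10 transcripts in each blastocyst, on an axis that is logarithmic above 0.1 TPM and linear below it, where circles are WT embryos (WT_1 outlined in black) and triangles are *TEAD4* KO embryos. *OOEP*, *ZP3* and *TLE6* lie above 1 TPM in all 9 embryos, and *BMP15* lies above 0 in WT_1 alone.

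The zona pellucida of cattle is built from the glycoproteins ZP2, ZP3 and ZP4, which the growing oocyte secretes and which form the coat around the egg and the early embryo. *ZP3* had TPM of 5.43, 10.5, 17.2, 18.4 and 7.0 in WT_1 through WT_5, and of 9.38, 4.93, 7.57 and 3.14 in TE_1 through TE_4. The 2 highest values were those of WT_3 and WT_4, 2 of the 4 KO embryos were below every WT embryo, and the groups overlapped. The mean was 11.7 ± 5.87 TPM over the WT embryos (SD, n = 5) against 6.26 ± 2.77 TPM over the KO embryos (SD, n = 4), with p = 0.159 by a two-sided exact permutation test. The log2 fold change of *ZP3*, KO minus WT on log2(TPM + 1), was −0.76 ± 0.42 (SE), with a 95% interval from −1.68 to 0.16 and a limma adjusted p of 0.891. Without WT_1 it was −0.97, with an unadjusted p of 0.0392 and an adjusted p of 0.785 from limma. The difference in *ZP3* was negative in every alternative fit, between −0.97 and −0.52, and its adjusted p was never under 0.719.

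The other zona genes were near 0. *ZP2* had TPM of 0.394, 0.0992, 0.118, 0 and 0 in WT_1 through WT_5, and of 0.118, 0.567, 0.300 and 0.0618 in TE_1 through TE_4, so that it was above 0 in all KO embryos and in 3 WT embryos. Its groups overlapped, and the log2 fold change was 0.16 ± 0.16 (SE), with a 95% interval from −0.19 to 0.51 and a limma adjusted p of 0.967. It was 0.24 without WT_1, and 0.75 ± 0.65 (SE) with 0.1 TPM added in place of 1. *ZP4* had TPM of 0.413, 0.0193, 0.241, 0.0466 and 0 in WT_1 through WT_5 and was listed at 0 in each of the 4 KO libraries. It was thus found in 4 of 5 WT embryos and in no KO embryo (two-sided exact permutation test of the TPM, p = 0.0794). The depth of each single library is not known here, and KO libraries had fewer genes above 0 TPM on average. WT_1, with the highest *ZP4*, had 14807 such genes. TE_1 had fewer (14776), and TE_2 (15156), TE_3 (15167) and TE_4 (15375) had more. Whether detection differed between genotypes for *ZP4* was not tested. *ZP4* had a median of 0 TPM and was not tested in the fit across genes. *ZP3* was the one zona transcript at a level of several TPM, and its lowest value (3.14 TPM in TE_4) was above the highest value of *ZP2* (0.567 TPM) and *ZP4* (0.413 TPM).

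*GDF9* and *BMP15* encode growth factors of the TGF-beta family that the oocyte secretes to the granulosa and cumulus cells around it. *GDF9* had TPM of 1.38, 0.248, 0.0369, 0 and 0.271 in WT_1 through WT_5, and of 1.41, 0.359, 0 and 0 in TE_1 through TE_4. A single embryo of each genotype, WT_1 and TE_1, was above 1 TPM, and the groups overlapped. The log2 fold change of *GDF9* was 0.034 ± 0.31 (SE), with a 95% interval from −0.64 to 0.71 and a limma adjusted p of 0.994. Its sign depended on single embryos, being −0.25 without TE_1 and 0.25 without WT_1. *BMP15* was at 1.42 TPM in WT_1 and was listed at 0 in all other 8 libraries. The 2 growth factors were thus found together only in WT_1 among these libraries, while TE_1, with as much *GDF9*, had no *BMP15*.

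*OOEP*, *NLRP5*, *TLE6* and *PADI6* are known as genes of the subcortical maternal complex or of the cytoplasmic lattices linked to it. *OOEP*, a small KH domain protein of the complex, had the highest level of the 10 transcripts in each of the 9 libraries. It had TPM of 35.5, 21.6, 51.1, 34.8 and 25.0 in WT_1 through WT_5, and of 27.6, 31.8, 101 and 19.2 in TE_1 through TE_4. TE_3 was far above the other KO embryos, 2 of the 4 KO embryos were within the range of the WT embryos, and the groups overlapped. The mean of *OOEP* was 33.6 ± 11.5 TPM over the WT embryos (SD, n = 5) against 44.8 ± 37.6 TPM over the KO embryos (SD, n = 4), with p = 0.746 by a two-sided exact permutation test. The log2 fold change of *OOEP* was 0.17 ± 0.43 (SE), with a 95% interval from −0.77 to 1.11 and a limma adjusted p of 0.986, and it became 0.20 without WT_1 and −0.31 without TE_3. For scale, the median of *OOEP* over the 9 libraries was 31.8 TPM, below the medians of all 10 housekeeping genes looked up, which ran from 37.8 TPM for *TBP* and 94.8 TPM for *HPRT1* to 1882 TPM for *GAPDH*, 8046 TPM for *PPIA* and 8062 TPM for *ACTB*. Among all genes of a library, *OOEP* was above 78.4% (TE_4) to 93.0% (TE_3) of them.

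*TLE6*, a co-repressor-like protein of the complex, varied most among the 3 transcripts of the upper level. It had TPM of 1.54, 2.67, 12.2, 5.06 and 7.88 in WT_1 through WT_5, and of 8.88, 19.5, 6.29 and 3.83 in TE_1 through TE_4, a 12.7-fold span, against 5.24-fold for *OOEP* and 5.86-fold for *ZP3*. WT_1 was the lowest and TE_2 the highest embryo, and 3 of the 4 KO embryos were within the WT range. The mean was 5.88 ± 4.31 TPM over the WT embryos (SD, n = 5) against 9.62 ± 6.89 TPM over the KO embryos (SD, n = 4), with p = 0.381 by a two-sided exact permutation test. The log2 fold change of *TLE6* was 0.66 ± 0.54 (SE), with a 95% interval from −0.52 to 1.84 and a limma adjusted p of 0.945. Without WT_1, the lowest embryo, it was 0.36. *ZP3* was above *TLE6* in 6 libraries and below it in 3, so that these 2 had no fixed order. In the RefSeq annotation of ARS-UCD2.0 the span of *TLE6* overlaps those of *TLE2* and *ZNF77*, and that of *ZAR1* overlaps *FRYL*. The sources used here disagree on whether the library kit kept the strand. Whether exons overlap was not checked, so the values of *TLE6* and *ZAR1* may be less certain than the others.

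*NLRP5* and *PADI6* were the lowest of this group. *NLRP5*, also called MATER and a classical maternal effect gene, ranged from 0.0182 to 0.135 TPM in the 5 WT embryos and from 0 to 0.0958 TPM in the KO embryos. *PADI6*, a peptidylarginine deiminase needed for the lattices, had TPM of 0.310, 0, 0, 0.0880 and 0.0496 in WT_1 through WT_5, and of 0.126, 0.131, 0.294 and 0.0499 in TE_1 through TE_4. It was above 0 in 4 of 4 KO and 3 of 5 WT embryos, and the groups overlapped (two-sided exact permutation test, p = 0.413 for *PADI6* and 0.603 for *NLRP5*). Both had a median under 0.1 TPM and were not tested in the fit across genes. The products of *OOEP*, *TLE6* and *NLRP5* belong to 1 protein complex, and at D8 their transcripts differed in level by over 2 orders of magnitude, with medians of 31.8 TPM for *OOEP*, 6.29 TPM for *TLE6* and 0.0637 TPM for *NLRP5*.

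*ZAR1* encodes an oocyte protein that binds maternal messenger RNA. It had TPM of 0.188, 0.123, 0.0846, 0.147 and 0.641 in WT_1 through WT_5, and of 0.437, 0, 0 and 0.131 in TE_1 through TE_4. It was found in every WT embryo and in 2 KO embryos, never above 1 TPM, and the groups overlapped. KO libraries had fewer genes of any kind above 0 TPM on average, and whether that bears on *ZAR1* was not tested. The log2 fold change of *ZAR1* was −0.11 ± 0.17 (SE), with a 95% interval from −0.48 to 0.26 and a limma adjusted p of 0.982. Without WT_1 it was −0.12, and with 0.1 TPM added in place of 1 it was −0.64 ± 0.66 (SE).

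Across genotypes, no member was called. The comparison of KO with WT embryos asks whether the loss of TEAD4 goes along with more or less of these transcripts at D8. *GDF9*, *ZAR1*, *OOEP*, *TLE6*, *ZP2* and *ZP3* had a median above 0.1 TPM and were tested with limma on log2(TPM + 1) among 14599 genes, and 4 were not tested. A gene was called at an adjusted p-value under 0.05 and a fold change above 2, which 0 of the 6 reached, beside 0.0205% of all genes tested. At an unadjusted p-value under 0.05 the numbers were 0 of 6 and 5.90% of all genes. The paper's DESeq2 analysis, at the same adjusted p-value and a shrunken fold change above 2, reported more genes than limma called here. WT and KO values did not overlap in 0 of the 10 transcripts, beside 2.03% of the genes tested. Of the 6, 2 had a lower and 4 a higher mean in KO, with a median log2 fold change of 0.098 beside −0.046 over all genes tested. The 95% intervals of *OOEP*, *TLE6* and *ZP3* include differences of more than 2-fold. Those of *GDF9*, *ZAR1* and *ZP2* do not on log2(TPM + 1), which compresses values under 1 TPM, and with 0.1 TPM added they ran from −2.20 to 2.05 for *GDF9*, from −2.08 to 0.79 for *ZAR1* and from −0.66 to 2.17 for *ZP2*, so that more than 2-fold was within all 6.

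**Figure D2:**
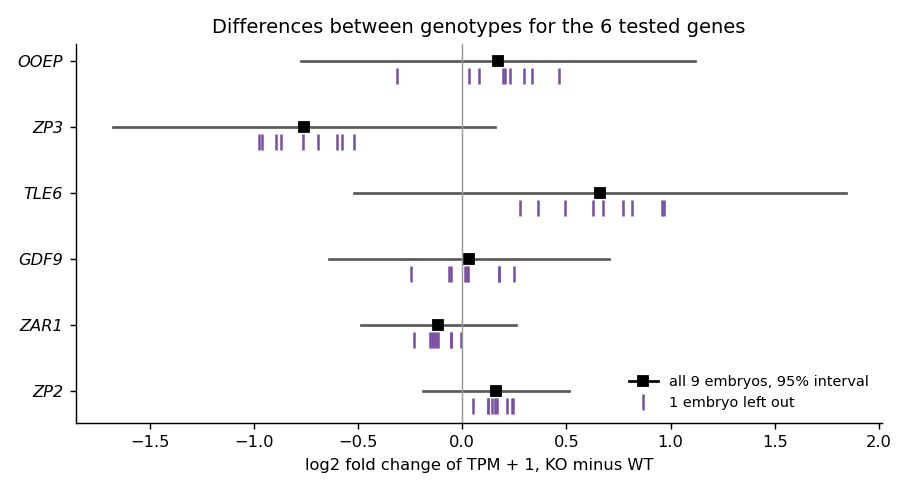
Log2 fold change of TPM + 1, KO minus WT, of the 6 transcripts with a median above 0.1 TPM; squares and lines are the estimate and 95% interval of limma from all 9 embryos, and vertical marks are the estimates with 1 embryo left out. All intervals include 0, the estimates of *ZP3* stay below 0, and those of *OOEP* and *GDF9* lie on both sides.

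The summed TPM of the 10 transcripts was 52.5 ± 18.2 over the WT embryos (SD, n = 5) against 61.8 ± 37.9 over the KO embryos (SD, n = 4), with a lowest value of 26.5 in TE_4 and a highest of 115 in TE_3. *OOEP* was the largest part of each sum. The difference between the means, KO minus WT, was 9.26 TPM with all embryos, 7.78 TPM without WT_1 and −8.54 TPM without TE_3. The 7 transcripts of the lower level, which were set apart by their level after the values were seen, had sums of 4.12, 0.533, 0.551, 0.417 and 1.02 in WT_1 through WT_5, and of 2.11, 1.15, 0.594 and 0.326 in TE_1 through TE_4. WT_1 was the highest, and the next, TE_1, owed most of its sum to *GDF9*. The 2 sums did not single out the same embryo, since the upper 3 transcripts were highest in TE_3 and those of the lower level in WT_1.

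**Figure D3:**
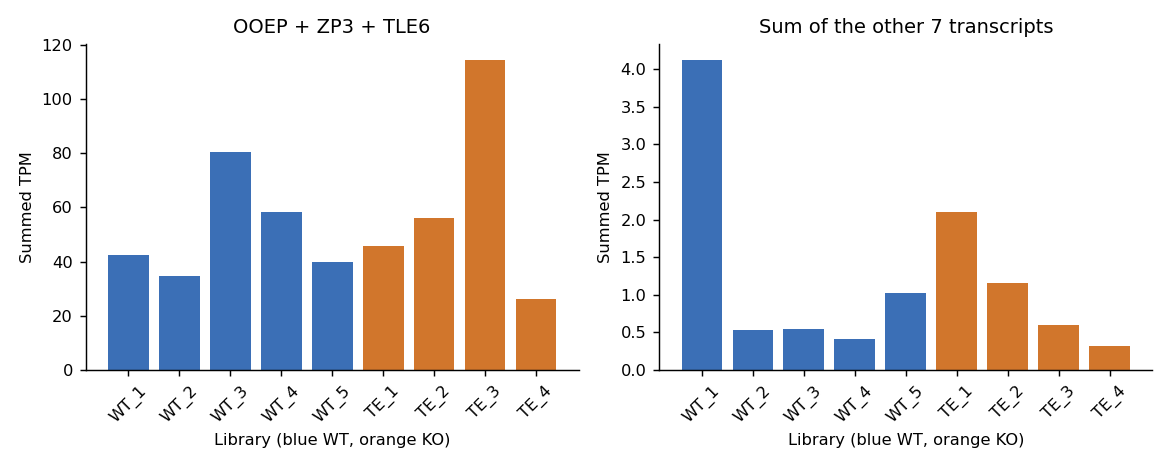
Summed TPM of *OOEP*, *ZP3* and *TLE6* (left) and of the other 7 transcripts (right) in each blastocyst, WT in blue and KO in orange, with separate axes from 0. TE_3 has the highest sum on the left (115 TPM) and WT_1 the highest on the right (4.12 TPM).

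No pair of the transcripts passed a test of covariation across embryos. Among the 8 members above 0 TPM in at least 6 libraries, 28 pairs were compared over the 9 libraries. Spearman's rho lay between −0.563 (*ZAR1* and *ZP2*) and 0.588 (*PADI6* and *ZP2*). For *PADI6* and *ZP2*, Pearson's r of log2(TPM + 1) was 0.631 (exact permutation p = 0.0665) and rho had an exact permutation p of 0.102, and r was 0.459 without the 2 libraries farthest from the median of *PADI6*. No pair passed Benjamini-Hochberg adjustment over the 28, with permutation values adjusted to 0.742 or more for r and to 0.851 or more for rho. For *OOEP* and *ZP3* r was 0.292 and rho 0.333, for *OOEP* and *TLE6* r was 0.209 and rho 0.217, and for *TLE6* and *ZP3* r was 0.143 and rho 0.0667.

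WT_1 was the only library in which all 10 transcripts were above 0, against 5 to 8 in the other libraries. It had 14807 genes above 0 TPM, the fewest of the WT libraries. It held the highest value of *BMP15*, *PADI6* and *ZP4* and the second highest of *GDF9* and *ZP2*, but the lowest of *TLE6*. To see whether other oocyte genes were high in the same embryo, the table was searched for genes at 5 TPM or more in 1 library and at least 5 times the highest of the other 8, a rule set after the values of *BMP15* and *GDF9* were seen. In WT_1 it returned 6 genes: *BTG4*, *OOSP2*, *ID3*, *EIF4E1B*, *MOS* and *TCL1A*. Of these, 5 are known for their expression in oocytes and *ID3*, a BMP-responsive inhibitor of transcription, is not. With 1 TPM as the minimum the rule returned 23 genes, among them *H1-8*, *ZAR1L* and *BMP15*. Others were *RERGL*, *SAXO1*, *TMEM239*, *FGD3*, *C17H22orf31*, *UBXN10* and genes without a symbol, whose expression in oocytes was not looked up. The share of oocyte genes among the 23 is thus not known, and the number of genes returned depends on the minimum.

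*BTG4*, the adaptor that brings the CCR4-NOT deadenylase to maternal transcripts, was at 59.0 TPM in WT_1 and at 0.270 to 10.9 TPM in the other 8. *OOSP2*, an oocyte-secreted protein, was at 37.5 TPM in WT_1 and at 0 to 1.62 TPM in the others. *EIF4E1B*, the oocyte form of the cap-binding factor eIF4E, was at 28.5 TPM in WT_1, was listed at 0 in 7 other libraries, and reached 0.302 TPM in the eighth. *MOS*, the kinase that keeps the mature egg arrested in meiosis, was at 11.5 TPM in WT_1 and at or under 0.918 TPM in the others. *TCL1A* was at 5.55 TPM in WT_1 and listed at 0 in all other 8, the pattern of *BMP15*. Outside the rule, *KHDC3L* of the subcortical maternal complex was at 10.9 TPM in WT_1 and at 0.194 to 4.32 TPM elsewhere, the oocyte linker histone *H1-8* at 4.11 TPM and at or under 0.313 TPM elsewhere, and the *ZAR1* relative *ZAR1L* at 2.93 TPM and at or under 0.423 TPM elsewhere. These genes were named for their high values in WT_1, which are a description of 1 embryo. Other genes of the same lists went the other way there. *DPPA3* (117 TPM), *KIT* (2.09 TPM) and *NLRP12* (0.0451 TPM) were at their lowest of the 9 libraries, and *LHX8* was at 0.0187 TPM. *NLRP7* and *NLRP14* were at 0 in WT_1 and in some other libraries. *FIGLA* and *WEE2* were at 0 in WT_1 as in most libraries.

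**Figure D4:**
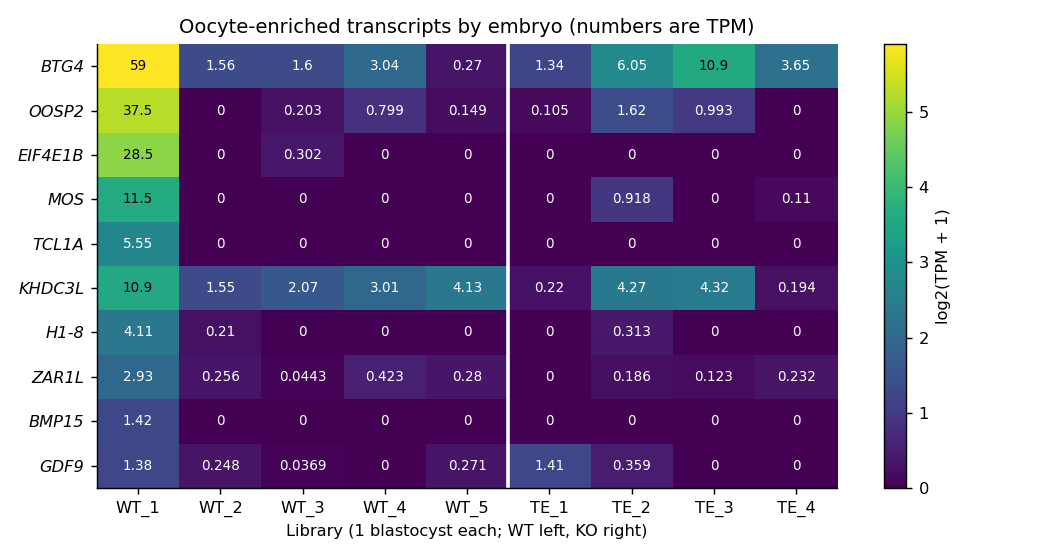
TPM (numbers) and log2(TPM + 1) (colour) of *BMP15*, *GDF9* and 8 further oocyte-enriched transcripts in each blastocyst, WT on the left and KO on the right of the white line. WT_1 has the highest value in every row but that of *GDF9*, where TE_1 is as high. The 8 further transcripts were picked for their high values in WT_1, so their pattern follows from that choice. *ID3*, also far higher in WT_1, is not shown. Oocyte genes at their lowest in WT_1, such as *DPPA3*, *KIT* and *NLRP12*, are not shown either.

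The same rule returned between 1 (WT_2 and WT_5) and 33 genes (TE_2) in the other libraries, so that WT_1 did not stand apart by their number. Nor did it by a count of highest values: of 32 further oocyte, complex and NLRP genes above 0 somewhere, WT_1 held the highest value for 6 (18.8%, beside 11.8% of all genes), held the lowest value above 0 for 3 and was at 0 for 9, and TE_4 for 8 (25.0%, beside 14.0%). In TE_4 these were genes such as *LHX8*, *FIGLA* and *NLRP13*, none above 3.73 TPM. In WT_1, *NANOG* was at 0.127 TPM, the lowest of the 9 libraries (2.70 to 262 TPM in the others), *SOX2* was at 3.89 TPM and *CDX2* at 44.7 TPM. Of 17 markers of cumulus and granulosa cells, which surround the oocyte, 13 were under 1 TPM in WT_1 and 7 were at 0 there (*AMH*, *INHA*, *INHBA*, *PTX3*, *TNFAIP6*, *FST* and *VCAN*). The summed level of the 17 was 214 to 488 TPM in WT (488 in WT_1) and 18.4 to 358 TPM in KO embryos, most of it from *CYP11A1* and *HSD3B1*, enzymes of steroid synthesis, at 247 and 220 TPM in WT_1. Between genotypes 0 of the 10 cumulus markers tested were called by limma, beside 0.0205% of all genes tested. At an unadjusted p-value under 0.05 there were 2, both lower in KO, beside 5.90% of all genes tested. These were *CYP11A1* (−2.61 ± 0.73 (SE) on the log2 scale, limma adjusted p = 0.566, and −2.34 without WT_1) and *HSD3B1* (−2.10 ± 0.79, limma adjusted p = 0.753, and −1.96 without WT_1). Which cells the transcripts of these 2 enzymes came from was not tested. *FSHR*, the receptor for follicle-stimulating hormone, was next in level, with a median of 18.2 TPM. Of 12 genes looked up as sperm and spermatid markers, 7 were at 0 in WT_1. The summed level of the 12 was 34.9 to 152 TPM in WT and 36.8 to 138 TPM in KO embryos. Whether cells of the embryo also express them was not looked up. The 8 sperm markers tested included 0 called and 1 at an unadjusted p-value under 0.05, beside the same shares of all genes. This was *TNP2*, higher in KO (1.69 ± 0.54 (SE) on the log2 scale, limma adjusted p = 0.624, and 1.91 without WT_1). The part of other cells in the values of the 10 transcripts was not tested.

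Other genes of the oocyte were for the most part low at D8. Of 28 further oocyte genes looked up, 24 were listed, and 8 of these (33.3%) had a median above 1 TPM, beside 52.2% of all genes. In all 17 were above a median of 0.1 TPM and tested, with 0 called in either direction and 0 at an unadjusted p-value under 0.05. The shares over all genes tested were 0.0205% and 5.90%. Their median log2 fold change was 0.087. The highest were *DPPA3*, a maternal factor that protects methylation in the zygote, at 117 to 321 TPM, the meiotic kinase *AURKC* at 29.6 to 88.1 TPM and the receptor *KIT* at 2.09 to 32.6 TPM. These 3 were above 1 TPM in every embryo, as were *OOEP*, *ZP3* and *TLE6*. The oocyte transcription factor *NOBOX* was at 0.178 to 0.900 TPM, and *FIGLA*, which drives the zona genes in oocytes, was above 0 in 1 library only (0.425 TPM in TE_4). *GPR3*, a receptor of meiotic arrest, was likewise above 0 only in WT_5. Of 12 further genes of the subcortical maternal complex and the reproductive NLRP cluster, 9 were listed and 5 tested, again with 0 called and 0 at an unadjusted p-value under 0.05. The highest medians were those of *KHDC3L* (3.01 TPM), *NLRP13* (0.573 TPM) and *NLRP12* (0.503 TPM).

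Factors known for the decay of maternal RNA were all listed, 22 of 22, and 21 had a median above 1 TPM. None of the 21 tested was called by limma, beside 0.0205% of all genes tested. At an unadjusted p-value under 0.05 there was 1, beside 5.90% of all genes tested. It was *ZFP36L2*, named for that value, which binds AU-rich transcripts. *ZFP36L2* averaged 29.1 TPM over WT and 18.2 TPM over KO embryos (a log2 difference of −0.67 ± 0.29 (SE), limma adjusted p = 0.808, and −0.74 without WT_1). The highest were the deadenylase *CNOT7* at 31.4 to 109 TPM, the m6A reader *YTHDF2* at 20.6 to 66.3 TPM and the deadenylase *CNOT8* at 20.4 to 52.9 TPM. Of 17 genes known from the time of genome activation, 9 were listed and 8 tested. Of these 0 were called and 1 had an unadjusted p-value under 0.05, beside the same shares of all genes. *DPPA2*, *DPPA4* and *OTX2* were the highest, with medians of 143, 69.5 and 30.5 TPM. *ZSCAN4*, named because it alone had an unadjusted p-value under 0.05, was at 2.98 to 35.3 TPM in WT and 6.61 to 60.0 TPM in KO embryos (a log2 difference of 1.71 ± 0.71 (SE), limma adjusted p = 0.797, and 2.20 without WT_1).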

How the data were processed

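The study sequenced polyadenylated RNA of 9 single D8 blastocysts. The deposited table holds TPM, which the authors made by quality control and pseudoalignment of the reads. The submitters' processing notes name FastQC, fastp and kallisto; versions, annotation and build are not given in the sources used here. The labels and the paper's methods describe different extraction and library kits. Columns were assigned to genotypes by their names, and all 9 were used, with 0 unassigned.

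The members and gene lists were chosen with earlier results of these data known. Genes with a median above 0.1 TPM were tested with limma 3.58.1 (R 4.3.3; lmFit, eBayes with trend) on log2(TPM + 1), so fold changes of low genes are understated, with Benjamini-Hochberg adjustment over all 14599 genes. Single genes were compared by exact permutation of mean TPM (two-sided, smallest possible p 0.0159). TPM are not counts, so the paper's DESeq2 was not run. The fit was tested on simulated, normally distributed data, with changes larger than 2-fold placed only in genes of higher level. That test does not cover members near 0 TPM or smaller differences. All 10 members are named, with the 3 highest genes of each further list and any gene of a list that was called; others were named after their values were seen. The fit was repeated with 0.1 TPM as pseudocount, without the filter, with a median above 1 TPM, with median-of-ratios size factors, quantile normalization or no trend, and leaving out each embryo. Python 3.11.15, scipy 1.17.1 and matplotlib 3.10.9 were used. P-values measure the spread between these embryos.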

Additional observations from a re-analysis of the deposited data

Results flagged for a closer look

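Values were flagged where 1 embryo lay far from the others of its genotype by Dixon's test. Its thresholds flag about 1 in 20 groups by chance only where values are normally distributed. TPM near 0 are not, and a group with 1 value above 0 and the rest at 0 is always flagged. The flags are thus a description, with no known chance rate. Among the 10 transcripts and their sums, WT_1 stood apart from the other WT embryos in *BMP15* (1.42 TPM), *GDF9* (1.38 TPM), *PADI6* (0.310 TPM) and the sum of the 7 low transcripts (4.12 TPM). WT_5 stood apart in *ZAR1* (0.641 TPM). Among the KO embryos, TE_3 stood apart in *OOEP* (101 TPM).

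Of the further genes named in the report, the check covered only *DPPA3*, *AURKC*, *KIT*, *NLRP12*, *NLRP13* and the genes in the next sentence. Among them, WT_1 stood apart in *BTG4* (59.0 TPM), *OOSP2* (37.5 TPM), *ID3* (32.8 TPM), *EIF4E1B* (28.5 TPM), *MOS* (11.5 TPM), *KHDC3L* (10.9 TPM), *TCL1A* (5.55 TPM), *H1-8* (4.11 TPM) and *ZAR1L* (2.93 TPM), most of which were named for that very difference. Other named genes, such as the sperm markers, were not checked. TE_2 stood apart from the other KO embryos in *MOS* (0.918 TPM) and *H1-8* (0.313 TPM). In all, 17 flags arose from 52 groups, which include groups at 0 throughout, where no flag can arise.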

How the results depend on the processing

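No member and no gene of the further lists was called in any of the alternative fits. The differences of *ZP3*, *TLE6* and *ZP2* kept their direction in every alternative that tested them, though those of *ZP2* and *ZAR1* grew to 0.75 and −0.64 with a pseudocount of 0.1 TPM. That of *GDF9* reversed to −0.079 with a pseudocount of 0.1 TPM, and to −0.052, −0.065 and −0.25 without WT_3, WT_4 and TE_1, within a range of −0.25 to 0.25 over embryos left out. That of *OOEP* reversed to −0.31 without TE_3 (range −0.31 to 0.46), and that of *ZAR1* to 0.00034 after quantile normalization. The cause was not tested. By construction, 10 members were tested with no filter and 3 with a median above 1 TPM. Over all genes, 3 were called, 8 with a pseudocount of 0.1 TPM, 8 with a median above 1 TPM, 5 with median-of-ratios size factors, 6 after quantile normalization, 5 without trend, and between 0 (without WT_3, WT_4, TE_1, TE_2 or TE_4) and 10 (without TE_3) with 1 embryo left out. With 1 TPM as the minimum in place of 5, chosen after seeing the data, 23 genes in place of 6 were far higher in WT_1. The difference in summed TPM moved by less than the spread between embryos, though its sign changed without TE_3 (−8.54 TPM) and without *OOEP* (−1.99 TPM). No paired analysis was possible because each sample is a separate embryo and the labels give WT and KO no shared replicate numbers. For transcripts near 0 TPM, what a 0 means is limited by the depth of each library, which TPM do not keep.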

Other observations

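The genes beside the 10 transcripts in the RefSeq annotation of ARS-UCD2.0 had levels of their own. *UQCRQ*, a subunit of the respiratory chain next to *GDF9*, had a median of 1173 TPM, *RCC2* next to *PADI6* 85.3 TPM and *OCIAD1* next to *ZAR1* 129 TPM, while those 3 members had medians of 0.248, 0.0880 and 0.131 TPM. *OOEP* lies beside *KHDC3L*, another gene of the subcortical maternal complex, with a median of 3.01 TPM. *NLRP5* lies beside *NLRP8*, which was listed at 0 in most libraries and reached 1.80 TPM in TE_2.

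Some, but not all, of the transcripts known from late spermatids and sperm were found in most embryos, at levels that differed widely. *TNP2* was above 0 in all 9 libraries (0.485 to 18.5 TPM), *TNP1* in 8 and *PRM1* in 7. The highest of the list by median were *ODF2* (16.7 TPM), *CRISP2* (10.8 TPM) and *TNP2* (3.67 TPM). *ODF2* was at 9.98 to 29.9 TPM over the 9 libraries. Whether the genes of the list are also expressed by cells of the embryo was not looked up. *PRM1*, which encodes a protamine of sperm chromatin, was at 15.5 TPM in WT_3, 45.9 TPM in WT_4 and 73.1 TPM in TE_3, the embryo with the most *OOEP*, and at 0 in WT_2 and TE_2. *TNP1*, a transition protein, was at 75.1 TPM in WT_4 and at 1.69 TPM in TE_3. *ODF1* and *AKAP4*, of the sperm tail, were at or near 0 in every library. *SMCP* was above 0 in 3 libraries (up to 0.127 TPM) and *SPATA3* in 4 (up to 0.303 TPM).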
